A study of Canis lupus familiaris with 4 samples.

Results

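The enzymes that split glucose to pyruvate, pass it into the mitochondrion and oxidize it there were followed in canine mammary ductal carcinoma. Of 47 genes listed for glycolysis, lactate formation, pyruvate entry, the pentose phosphate pathway, the citrate cycle and the malic enzymes, 32 stood under their symbol in the count tables, which hold 11277 genes. The members were taken by symbol, and earlier results of these data were known when they were chosen. The other 15, among them ALDOA, PGK1, PGAM1, ENO1, PKM, LDHA, LDHB, PDK1, PDK2 and MDH2, are not analysed here, so the lower part of glycolysis was represented by GAPDH alone and lactate formation by no gene.

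RNA came from ductal carcinoma of the mammary gland (libraries T1 and T2) and from non-tumor mammary tissue beside it (C1 and C2, the control), taken at mastectomy from 6 intact bitches of several breeds, aged 5 to 14 years, with naturally occurring early-stage tumors. Material of 3 dogs was mixed for every library. T1 and C1 stem from the same dogs (pool 1), as do T2 and C2 (pool 2), so an n of 2 counts pools and the spread between single dogs is not seen. Totals were 35496260 counts in T1 and 3236218 in T2, against 32352002 in C1 and 4027367 in C2, so pool 2 limits the precision. By the paper the dogs of pool 1 were older on average than those of pool 2. Between the pools, age, depth and the dogs themselves cannot be told apart. Every measured member had at least 55 counts in each library.

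Glycolysis splits a hexose into pyruvate in the cytosol and yields ATP without oxygen. The pentose phosphate pathway draws glucose 6-phosphate away to make NADPH and ribose. Pyruvate enters the citrate cycle through the pyruvate dehydrogenase complex, which is switched off by a family of kinases (PDK) and on by phosphatases (PDP), or through pyruvate carboxylase. In the lactating gland these routes feed the synthesis of milk fat and lactose, and in many tumors glycolysis runs fast even where oxygen is present.

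In carcinoma, HK1, ALDOC and PDK3 were higher and PDK4 was lower than in non-tumor tissue. None of the 11 measured citrate cycle genes was called, with or without pairing by dog, a count near the shares of all genes given below. Levels are CPM, a gene's share of its library's counts on a common scale, after TMM scaling, which corrects for differences in library composition. A gene was called at an adjusted p under 0.05 (edgeR's quasi-likelihood test, Benjamini-Hochberg over all genes) and an absolute log2 fold change of carcinoma over non-tumor of at least 1. By this rule 3 of 32 members (9.38%) were higher, where 4.62% of all genes were, and 1 (3.12%) was lower, where 5.24% of all genes were. The median log2 fold change of the members was 0.35, against 0.03 over all genes. Both carcinoma libraries lay above both non-tumor libraries for 16 members (50.0%), beside 29.6% of all genes, and below them for 5 (15.6%), beside 28.0%. With the pool as a replicate block, a fit in which each carcinoma library is set against the non-tumor library of the same dogs, 6 members (18.8%) were higher, beside 7.09% of all genes, and the same 1 lower, beside 6.83%. DESeq2 without a block also called 6 members higher and 1 lower, where 573 of all 11277 genes were higher and 633 lower. Fits that left out 1 library each are described in the closing section. Permuting 2 against 2 libraries gives an exact two-sided p of 0.33 at best, and the calls therefore depend on the spread that edgeR shares between genes.

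**Figure D1:**
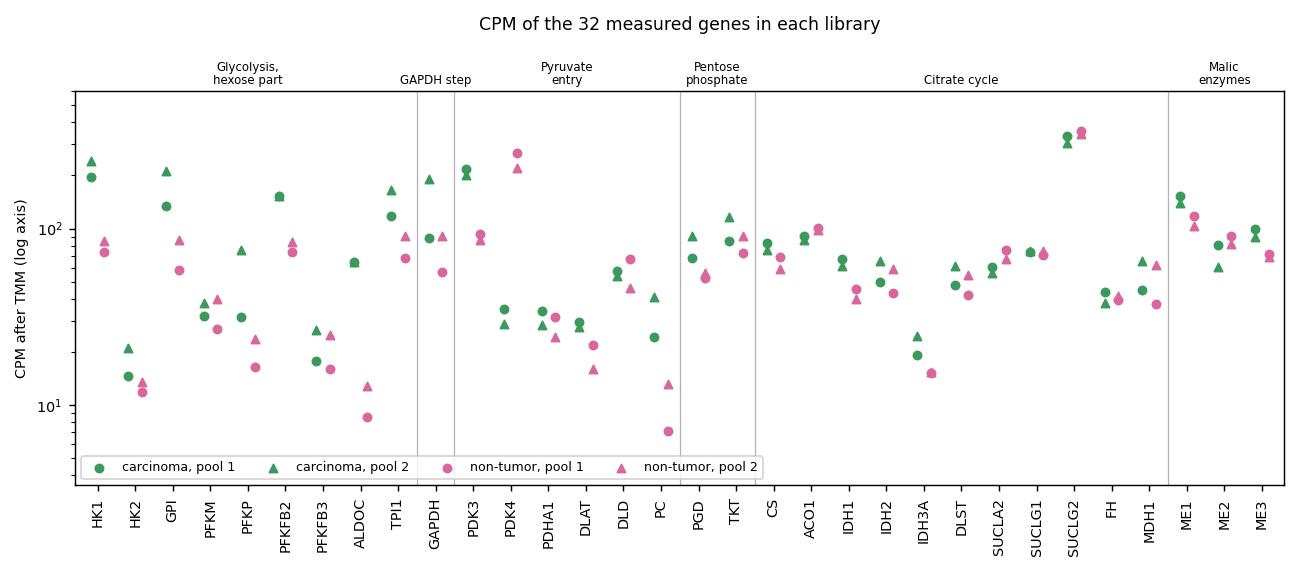
CPM after TMM (log axis) of the 32 measured genes, ordered by role, with 1 plot symbol per library (green for carcinoma, pink for non-tumor, circles for pool 1, triangles for pool 2). ALDOC lies near 65 CPM in both carcinoma libraries and at 8.60 and 12.7 CPM in the non-tumor ones, PDK4 shows the opposite order, and the tissues overlap for 5 of the 11 citrate cycle genes.

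The first steps of glycolysis were read in hexokinase, the enzyme that traps glucose in the cell as glucose 6-phosphate. HK1, the form found in most tissues and bound to the outer mitochondrial membrane, had 197 CPM in T1 and 241 CPM in T2, against 73.3 CPM in C1 and 85.1 CPM in C2. The carcinoma libraries lay well above the non-tumor ones in both pools. HK1 rose by 1.47 on the log2 scale (standard error 0.16, edgeR adjusted p = 0.00596), a 2.77-fold difference. HK2, the insulin-responsive form of muscle and fat that is often raised in tumors, had 14.6 CPM in T1 and 21.1 CPM in T2, against 11.8 CPM in C1 and 13.4 CPM in C2. Its log2 fold change was 0.48 (standard error 0.28, adjusted p = 0.329), and both carcinoma libraries lay above both non-tumor ones. As a ratio of counts within a library, HK2 to HK1 was 0.0740 in T1 and 0.0878 in T2, against 0.161 in C1 and 0.158 in C2, so the balance shifted to HK1 in each pool.

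GPI, which turns glucose 6-phosphate into fructose 6-phosphate, had 134 CPM in T1 and 212 CPM in T2, against 58.5 CPM in C1 and 86.5 CPM in C2. The carcinoma library was 2.30 times its non-tumor partner in pool 1 and 2.45 times in pool 2, while within each tissue pool 2 was the higher pool. The log2 fold change was 1.26 (standard error 0.30, adjusted p = 0.0542), just on the far side of the threshold. With the replicate block GPI was called (log2 fold change 1.23, adjusted p = 6.33e-43, with 1 residual degree of freedom), and likewise by DESeq2 (adjusted p = 2.14e-04), without T1 (adjusted p = 0.0136), without C2 (adjusted p = 0.0203) and with pool 1 thinned to the depth of pool 2 (adjusted p = 0.0435). Without T2 its log2 fold change was 0.91 (adjusted p = 0.0397) and without C1 0.94 (adjusted p = 0.162), neither of them a call.

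Phosphofructokinase commits the sugar to glycolysis and has several subunit genes, of which those of the muscle type (PFKM) and the platelet type (PFKP) were measured. PFKP had 31.4 CPM in T1 and 75.5 CPM in T2, against 16.5 CPM in C1 and 23.6 CPM in C2. T2 stood far above the other libraries, and the ratio of carcinoma to non-tumor was 1.91 in pool 1 and 3.19 in pool 2. The log2 fold change was 1.41 (standard error 0.47, adjusted p = 0.129). It was 1.16 with the replicate block (adjusted p = 9.66e-22) and 1.38 by DESeq2 (adjusted p = 0.0110), both calls. Leaving out 1 library gave a call without T1 (1.89, adjusted p = 0.0126) and none without T2 (0.67, adjusted p = 0.352), C1 (1.09, adjusted p = 0.392) or C2 (1.66, adjusted p = 0.0978). PFKM had 32.1 CPM in T1 and 37.8 CPM in T2, against 27.0 CPM in C1 and 39.6 CPM in C2. Its tissues overlapped, and its log2 fold change was 0.08 (standard error 0.25, adjusted p = 0.866). The ratio of PFKP to PFKM counts was 0.979 in T1 and 2.00 in T2, against 0.611 in C1 and 0.596 in C2.

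The bifunctional enzymes PFKFB2 and PFKFB3 make and remove fructose 2,6-bisphosphate, the strongest activator of phosphofructokinase. PFKFB2 had 152 CPM in T1 and 154 CPM in T2, against 73.3 CPM in C1 and 83.5 CPM in C2. The carcinoma pools were nearly alike and both stood above the control pools. Its adjusted p was 0.00842, but at 0.97 (standard error 0.12) the log2 fold change fell short of 1, so it was not called, and without C2 it was called at 1.06 (adjusted p = 0.0112). PFKFB3, the form induced by hypoxia, had 17.7 CPM in T1 and 26.8 CPM in T2, against 16.1 CPM in C1 and 25 CPM in C2. Here the gap between pools exceeded that between tissues (log2 fold change 0.11, standard error 0.34, adjusted p = 0.860).

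Aldolase cleaves the hexose into 2 trioses, and ALDOC encodes the form best known from brain. ALDOC had 65.0 CPM in T1 and 64.5 CPM in T2, against 8.60 CPM in C1 and 12.7 CPM in C2. Among the measured members it had the largest rise, 2.65 on the log2 scale (standard error 0.24, adjusted p = 0.00422), or 6.28-fold. Within the dogs of pool 1 the log2 ratio was 2.92 (95% interval 2.73 to 3.11, counting error only) and within pool 2 it was 2.34 (1.91 to 2.79). The aldolase form of most tissues, ALDOA, is not analysed here, so whether ALDOC replaced it or was added to it cannot be read from these values.

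TPI1, which interconverts the trioses, had 118 CPM in T1 and 165 CPM in T2, against 67.7 CPM in C1 and 90.4 CPM in C2. Its log2 fold change was 0.84 (standard error 0.23, adjusted p = 0.0779), and it was called without T1 (1.03, adjusted p = 0.0367) and without C2 (1.05, adjusted p = 0.0379) but was 0.59 both without T2 (adjusted p = 0.181) and without C1 (adjusted p = 0.286). GAPDH, the enzyme of the next step and a common reference gene, had 88.8 CPM in T1 and 192 CPM in T2, against 56.8 CPM in C1 and 90.4 CPM in C2. T1 lay below C2, so the tissues overlapped, although carcinoma was the higher library within each pool (1.56 and 2.13 times). The log2 fold change was 0.93 (standard error 0.43, adjusted p = 0.232), and the single library left out decided its size. It was 1.35 without T1 (adjusted p = 0.0283), 1.28 without C2 (adjusted p = 0.117), 0.56 without C1 (adjusted p = 0.620) and 0.29 without T2 (adjusted p = 0.747). Mammalian genomes carry processed copies of GAPDH and TPI1, and the sources do not say how reads shared with such copies were counted, so both genes are uncertain in that respect.

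Of the 9 measured genes from hexokinase to triose phosphate isomerase, 2 were called higher (22.2%) and 0 lower, beside 4.62% and 5.24% of all genes. All 9 had a positive log2 fold change, with a median of 0.97, beside 0.03 over all genes. Those of PFKM (0.08) and PFKFB3 (0.11) were small. They turned negative without T2 (−0.04 and −0.19) and without C1 (−0.24 and −0.25). With the replicate block 4 of the 9 were called higher (44.4%, beside 7.09% of all genes). Added up, their CPM came to 762 in T1 and 997 in T2, against 353 in C1 and 460 in C2, which is 2.16 times in pool 1 and 2.17 times in pool 2. For this sum the factor between carcinoma and its own control was thus nearly the same in both sets of dogs. Single genes were alike or not, with factors in pools 1 and 2 of 2.69 and 2.83 for HK1, 7.56 and 5.06 for ALDOC, and 1.91 and 3.19 for PFKP. Pool 2 stood above pool 1 in both tissues for 8 of the 9 genes (37.5% of all genes do so). Without the block such an offset between pools counts as error.

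**Figure D2:**
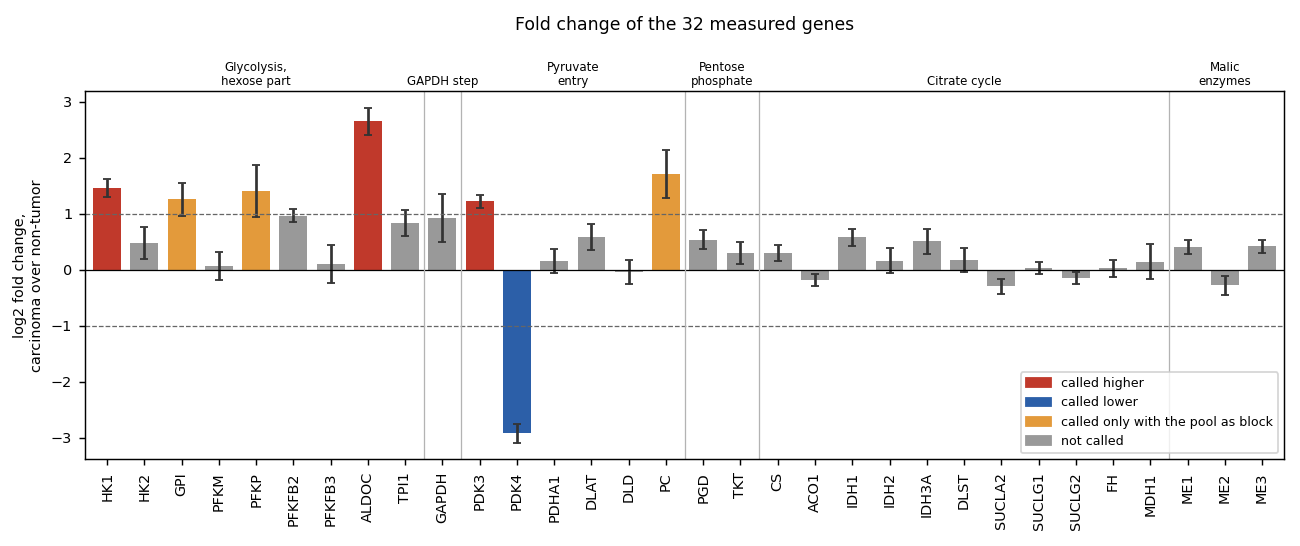
Log2 fold change of carcinoma over non-tumor for the 32 measured genes, with bars for the fitted value and whiskers for 1 standard error. Dashed lines mark the threshold of 1 in either direction. HK1, ALDOC and PDK3 pass upward and PDK4 downward, GPI, PFKP and PC (orange) are called with the pool as block and not without it, and the citrate cycle genes lie between −0.29 and 0.58.

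The genes for entry of pyruvate into the citrate cycle held calls in both directions, among them the only member of the 32 called lower. PDK4 and PDK3 encode kinases that phosphorylate and thereby inhibit pyruvate dehydrogenase. PDK4, known for its rise in fasting and in muscle that burns fat, had 35.1 CPM in T1 and 28.8 CPM in T2, against 267 CPM in C1 and 220 CPM in C2. Neither tissue came near the other, and the log2 ratio within pool 2 was −2.93 (95% interval −3.25 to −2.63, counting error only). PDK4 fell by 2.91 on the log2 scale (standard error 0.17, adjusted p = 0.00189), to 0.133 times the control level. PDK3 had 217 CPM in T1 and 202 CPM in T2, against 93.0 CPM in C1 and 86.0 CPM in C2. It rose by 1.22 on the log2 scale (standard error 0.11, adjusted p = 0.00443), and the log2 ratios of the pools, 1.22 and 1.23, were almost identical.

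The ratio of PDK3 to PDK4 counts, a pair chosen after its values were seen, was 6.18 in T1 and 7 in T2, against 0.349 in C1 and 0.390 in C2. The order of these kinase genes by count was thus inverted between the tissues in both pools. The phosphatase that reverses their action went the same way as PDK4. PDP1, from the list of other pyruvate and citrate cycle genes, had 40.2 CPM in T1 and 33.9 CPM in T2, against 131 CPM in C1 and 111 CPM in C2, and fell by 1.70 on the log2 scale (standard error 0.16, adjusted p = 0.00425). PDP2, the other phosphatase gene, had 4.58 and 6.25 CPM in carcinoma, against 4.03 and 6.49 CPM in control (log2 fold change 0.05, adjusted p = 0.948).

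Since PDK4 is abundant in skeletal muscle, the striated muscle markers belong beside it. Of 16 measured of 24 listed, 14 were lower in carcinoma (87.5%, beside 5.24% of all genes) and 0 higher. Their summed CPM was 51.7 in T1 and 87.1 in T2, against 2127 in C1 and 3279 in C2. MYL3 had 0 counts in both carcinoma libraries, and in T2 MYL2, MB, TNNT3, MYLPF and ACTN2 also stood at 0. Between the control pools PDK4 was higher in C1 and the muscle sum in C2, the largest part of that sum being TTN (1472 CPM in C1, 2462 CPM in C2). Single muscle markers went either way, MYL1 with 63.8 CPM in C1 and 35.0 CPM in C2, and CKM with 186 CPM in C1 and 266 CPM in C2. The part of muscle RNA in the PDK4 result was not tested, and in bulk tissue fewer cells of a type and less RNA per cell cannot be told apart. PDK4 is also a gene of fat cells, for which 4 of 10 markers were measured (LPL, LIPE, PLIN4 and PNPLA2), none of them called without the block and PLIN4 higher with it (log2 fold change 1.31), at a summed 74.1 CPM in T1 and 111 CPM in T2, against 59.4 CPM in C1 and 91.1 CPM in C2. The defining fat markers ADIPOQ, PLIN1 and LEP are not analysed here.

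None of the measured subunits of the complex that these kinases control was called. PDHA1, the catalytic subunit they phosphorylate, had 34.2 CPM in T1 and 28.6 CPM in T2, against 31.7 CPM in C1 and 24.3 CPM in C2 (log2 fold change 0.16, standard error 0.22, adjusted p = 0.672). DLAT, the core acetyltransferase, had 29.7 and 27.7 CPM in carcinoma, against 21.8 and 16.0 CPM in control, apart in both pools but with an adjusted p of 0.178 (log2 fold change 0.59, standard error 0.23). DLD, the subunit that the complex shares with oxoglutarate dehydrogenase, had 57.6 and 54.1 CPM in carcinoma, against 67.4 and 46.1 CPM in control, and its pools went opposite ways (log2 fold change −0.03, standard error 0.21, adjusted p = 0.933).

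Pyruvate carboxylase, the route that refills the cycle with oxaloacetate, is encoded by PC. It had 24.2 CPM in T1 and 40.7 CPM in T2, against 7.08 CPM in C1 and 13.2 CPM in C2. Carcinoma exceeded its own control 3.42 times in pool 1 and 3.08 times in pool 2, with pool 2 above pool 1 in each tissue. Among members that were not called it had the largest log2 fold change, 1.71 (standard error 0.43, adjusted p = 0.0640). With the replicate block it was 1.73 (adjusted p = 8.62e-30) and by DESeq2 1.68 (adjusted p = 0.00176), both calls, and PC was also called without T1 (2.02, adjusted p = 0.0357) and without C2 (2.17, adjusted p = 0.0259). It was not called without T2 (1.31, adjusted p = 0.0935) or without C1 (1.22, adjusted p = 0.214). In C2 it rested on 57 counts. As a whole the 6 measured genes of pyruvate entry held 1 higher, 1 lower and 4 not called, with a median log2 fold change of 0.37. The calls were 16.7% in each direction, beside 4.62% higher and 5.24% lower over all genes.

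**Figure D3:**
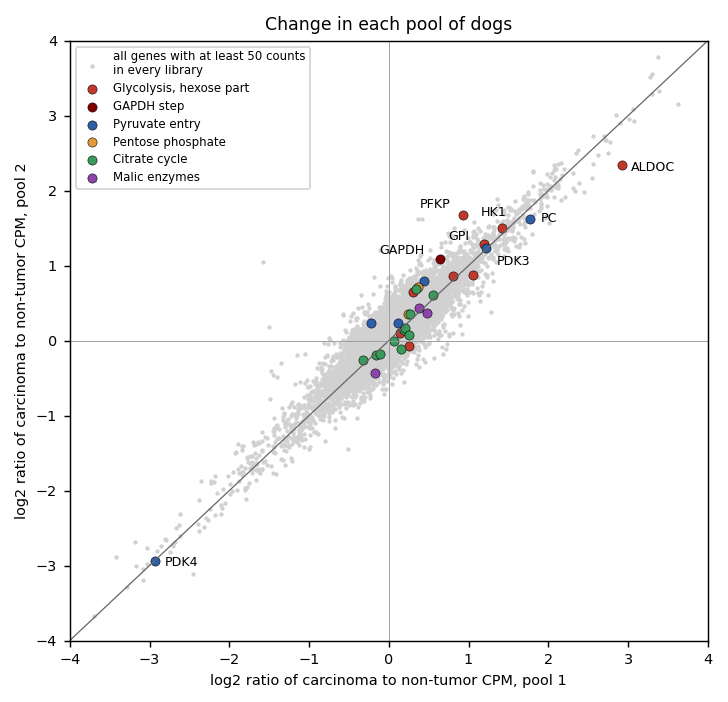
Log2 ratio of carcinoma to non-tumor CPM in pool 1 (x axis) against pool 2 (y axis), in gray for 7712 genes, those whose count is 50 or more in all 4 libraries (5 lie beyond the axes, which end at 4), and in color for the 32 measured members by role. Most of the colored points fall near the diagonal, with PDK4 at −2.93 in both pools, ALDOC at 2.92 and 2.34, and PFKP at 0.93 and 1.68.

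The oxidative arm of the pentose phosphate pathway was represented by PGD, which makes NADPH while turning 6-phosphogluconate into a pentose, and the rearranging arm by TKT, transketolase. PGD had 67.8 CPM in T1 and 91.0 CPM in T2, against 52.6 CPM in C1 and 55.6 CPM in C2 (log2 fold change 0.54, standard error 0.18, adjusted p = 0.121). TKT had 85.6 CPM in T1 and 116 CPM in T2, against 72.2 CPM in C1 and 90.6 CPM in C2, with overlapping tissues (log2 fold change 0.30, standard error 0.20, adjusted p = 0.388). Neither was called, where 4.62% of all genes were called higher and 5.24% lower. Of 5 other genes of the pathway that were measured, 0 were called. With so few genes such a count lies near those shares. H6PD, the form of the first enzyme inside the endoplasmic reticulum, had 73.3 and 147 CPM in carcinoma, against 37.3 and 70.9 CPM in control. It was the 1 of these 5 called with the replicate block (20%, beside 7.09% of all genes called higher). Without the block its log2 fold change was 1.03 (adjusted p = 0.213).

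No citrate cycle gene was called, where 4.62% of all genes were called higher and 5.24% lower (7.09% and 6.83% with the replicate block). With 11 genes a count of 0 lies near those shares. Of 11 measured, 0 had an adjusted p under 0.05 in edgeR without the block. With the replicate block 9 had one, all below the fold threshold, where 64.1% of all genes had one at any fold. With library totals alone IDH1 also had an adjusted p under the threshold (0.0404, log2 fold change 0.62). Log2 fold changes ran from −0.29 to 0.58, with 8 positive and a median of 0.14. The summed CPM of the 11 genes was 914 in T1 and 913 in T2, against 898 in C1 and 917 in C2, a ratio of 1.02 in pool 1 and 0.996 in pool 2. SUCLG2 took the most counts, on a scale that is not corrected for gene length.

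Along the cycle, CS, citrate synthase, had 83.3 CPM in T1 and 75.8 CPM in T2, against 69.4 CPM in C1 and 59.3 CPM in C2 (log2 fold change 0.30, standard error 0.14, adjusted p = 0.225). IDH3A, the catalytic subunit of the NAD-dependent isocitrate dehydrogenase, had 19.3 and 24.7 CPM in carcinoma, against 15.2 and 15.3 CPM in control (log2 fold change 0.51, standard error 0.23, adjusted p = 0.223). Both genes lay apart by tissue without passing the test. DLST, the core of oxoglutarate dehydrogenase, SUCLG1, FH (fumarase) and MDH1, the cytosolic malate dehydrogenase, had log2 fold changes of 0.18, 0.03, 0.03 and 0.14, and the tissues overlapped for each.

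Succinyl-CoA ligase pairs the shared subunit SUCLG1 with SUCLA2 to form ATP or with SUCLG2 to form GTP. SUCLA2 had 60.6 CPM in T1 and 56.2 CPM in T2, against 75.9 CPM in C1 and 67.0 CPM in C2 (log2 fold change −0.29, standard error 0.13, adjusted p = 0.224). SUCLG2 had 333 CPM in T1 and 306 CPM in T2, against 359 CPM in C1 and 345 CPM in C2 (log2 fold change −0.14, standard error 0.11, adjusted p = 0.463). Both lay a little below control in each pool, and the ratio of SUCLA2 to SUCLG2 counts was 0.182 in T1 and 0.184 in T2, against 0.211 in C1 and 0.194 in C2. ACO1, the cytosolic aconitase that doubles as an iron sensor, was the remaining gene of this group with both carcinoma libraries below control, at 90.2 and 86.0 CPM, against 101 and 98.5 CPM (log2 fold change −0.17, adjusted p = 0.344).

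Isocitrate dehydrogenases that use NADP have a cytosolic form, IDH1, and a mitochondrial form, IDH2. IDH1 had 67.2 CPM in T1 and 61.0 CPM in T2, against 45.7 CPM in C1 and 39.9 CPM in C2, apart in both pools (log2 fold change 0.58, standard error 0.14, adjusted p = 0.0632). IDH2 had 49.6 CPM in T1 and 65.1 CPM in T2, against 43.3 CPM in C1 and 58.9 CPM in C2, and followed the pool more than the tissue (log2 fold change 0.17, standard error 0.22, adjusted p = 0.669). The IDH1 to IDH2 ratio of counts was 1.35 in T1 and 0.936 in T2, against 1.06 in C1 and 0.677 in C2, so it was higher in carcinoma within each pool while T2 lay below C1.

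Malic enzymes turn malate into pyruvate, in the cytosol with NADP (ME1) and in mitochondria with NAD (ME2) or NADP (ME3). ME1 had 152 CPM in T1 and 140 CPM in T2, against 117 CPM in C1 and 103 CPM in C2 (log2 fold change 0.40, standard error 0.12, adjusted p = 0.101). ME3 had 99.8 CPM in T1 and 89.2 CPM in T2, against 71.6 CPM in C1 and 69.3 CPM in C2 (log2 fold change 0.43, standard error 0.12, adjusted p = 0.0793). ME2 lay on the other side, at 81.0 CPM in T1 and 60.4 CPM in T2, against 91.0 CPM in C1 and 81.4 CPM in C2 (log2 fold change −0.28, standard error 0.18, adjusted p = 0.368). None of the 3 was called, a count near the shares of all genes (4.62% higher and 5.24% lower), and each had its tissues apart. The ratio of ME1 to ME2 counts was 1.88 in T1 and 2.33 in T2, against 1.29 in C1 and 1.27 in C2. Grouped after their values were seen, the 5 measured members that make NADPH (PGD, IDH1, IDH2, ME1 and ME3) all had a positive log2 fold change, from 0.17 to 0.58. That of IDH2 turned negative without T2 (−0.03) and without C1 (−0.10). In this group 0 were called, which again lies near the shares of all genes.

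**Figure D4:**
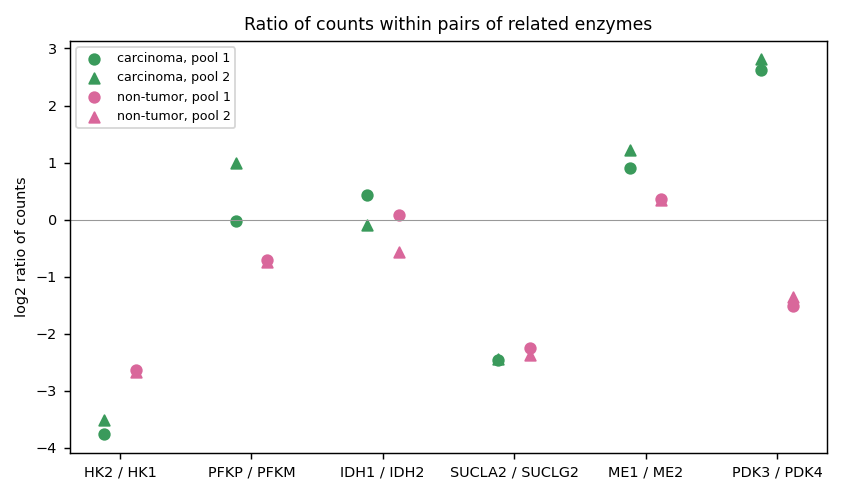
Log2 ratio of counts within pairs of related enzymes, with 1 plot symbol per library (green for carcinoma, pink for non-tumor, circles for pool 1, triangles for pool 2). For PDK3 / PDK4 the carcinoma libraries stand at 2.63 and 2.81 and the non-tumor ones at −1.52 and −1.36, HK2 / HK1 is lower in carcinoma, PFKP / PFKM and ME1 / ME2 are higher, and SUCLA2 / SUCLG2 shifts by −0.22 and −0.08 within the pools.

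The sugar and lactate transporters that serve these enzymes were read from a separate list, with a median log2 fold change of 0.58. Of 10 measured genes 1 was higher (10%) and 0 lower, beside 4.62% and 5.24% of all genes. SLC2A1, the glucose carrier GLUT1, had 58.5 CPM in T1 and 83.6 CPM in T2, against 18.6 CPM in C1 and 32 CPM in C2, and rose by 1.52 on the log2 scale (standard error 0.33, adjusted p = 0.0440). That call was lost with library totals alone (adjusted p = 0.0904), with genes under 10 counts in any library left out (adjusted p = 0.0509), with pool 1 thinned (adjusted p = 0.0656) and without C1 (adjusted p = 0.108). SLC16A3, the lactate exporter MCT4, had 6.67 and 16.7 CPM in carcinoma, against 1.46 and 3.94 CPM in control, and was called with the replicate block (2.15) but not without it (log2 fold change 2.24, adjusted p = 0.115).

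Among 12 other measured genes of glycolysis and gluconeogenesis, 1 was higher (8.33%), 2 were lower (16.7%) and 9 were not called. Over all genes 4.62% were higher and 5.24% lower. PFKFB4, another maker of fructose 2,6-bisphosphate, had 18.4 and 21.7 CPM in carcinoma, against 7.45 and 9.04 CPM in control (log2 fold change 1.29, adjusted p = 0.0329). FBP1, the phosphatase that runs the phosphofructokinase step backward in gluconeogenesis, had 11.4 and 14.9 CPM in carcinoma, against 28.3 and 29.0 CPM in control (log2 fold change −1.15, adjusted p = 0.0335). With library totals alone the calls of PFKFB4 (edgeR adjusted p = 0.0638) and FBP1 (edgeR adjusted p = 0.0676) were lost. With pool 1 thinned FBP1 was not called either (log2 fold change −0.86, edgeR adjusted p = 0.0901). The PFKFB4 call was also lost without any 1 of the 4 libraries, at log2 fold changes from 1.09 to 1.42. The FBP1 call was lost without T1, C1 or C2, and its log2 fold change ranged from −1.33 to −0.99 over the 4 fits. ENO3, the muscle enolase, had 1.80 and 2.68 CPM in carcinoma, against 16.6 and 32.7 CPM in control (log2 fold change −3.55, adjusted p = 0.0111). ENO3 rested on 9 counts in T2, so the filter of at least 10 counts in every library left it out. It stood higher in C2 than in C1, as did the muscle marker sum, and the part of muscle RNA in its fall was not tested.

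Of 13 measured glycogen genes 1 was higher, 1 lower (7.69% each, beside 4.62% and 5.24% of all genes) and 11 were not called. With the replicate block 3 were higher (23.1%, beside 7.09% of all genes), PHKG1 and GYS1 being added. PYGM, the glycogen phosphorylase of muscle, had 1.14 and 2.38 CPM in carcinoma, against 14.5 and 27.1 CPM in control (log2 fold change −3.79, adjusted p = 0.0134). It rested on 8 counts in T2, so the filter of at least 10 counts in every library left it out. PYGM too stood higher in C2 than in C1, as did the muscle marker sum, and the part of muscle RNA in its fall was not tested. PPP1R3C, a glycogen-targeting subunit of protein phosphatase 1, had 26.3 and 25.9 CPM in carcinoma, against 11.8 and 10.7 CPM in control (log2 fold change 1.21, adjusted p = 0.0220). The PPP1R3C call was lost with pool 1 thinned (log2 fold change 1.09, edgeR adjusted p = 0.0564). It was also lost without any 1 library, at log2 fold changes from 1.14 to 1.24. The 11 other measured pyruvate and citrate cycle genes gave PDP1 as the single call (9.09% lower, beside 5.24% of all genes). None of the 4 measured genes of the serine branch was called, a count near the shares of all genes, with log2 fold changes from 0.26 to 0.71.

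Regulators of these pathways gave 2 calls upward (15.4%) and 0 downward in 13 measured genes, beside 4.62% and 5.24% of all genes. HIF1A, the hypoxia factor that activates glycolytic genes, had 575 and 476 CPM in carcinoma, against 274 and 197 CPM in control (log2 fold change 1.16, adjusted p = 0.0238). Without T1 its adjusted p was 0.0503, and without C2 its log2 fold change was 0.94. PPARGC1B, a coactivator of mitochondrial genes, had 64.6 and 93.1 CPM in carcinoma, against 19.0 and 27.4 CPM in control (log2 fold change 1.78, adjusted p = 0.0165). MYC, which also drives glycolytic genes, had 27.4 and 32.7 CPM in carcinoma, against 21.1 and 22.7 CPM in control (log2 fold change 0.45, adjusted p = 0.215).

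The tissues differed in other cell types, with values that stand beside all the results above. For the counts that follow, 4.62% of all genes were called higher and 5.24% lower. Luminal epithelial markers were present in every library, and 0 of 5 measured were called. Milk genes were lower for 6 of 7 (LTF was higher), endothelial markers for 3 of 5, T and NK cell markers for 2 of 4 and macrophage markers for 1 of 5 (MRC1), while cartilage markers were higher for 4 of 7. Of 5 basal and myoepithelial markers 0 were called, and KRT5 and OXTR were higher with the replicate block, at a summed 823 CPM in T1 and 1132 CPM in T2, against 549 CPM in C1 and 683 CPM in C2. The block also added COMP to the higher cartilage markers and CD2 to the lower T and NK cell markers. The summed CPM of the endothelial list was 279 in T1 and 282 in T2, against 589 in C1 and 632 in C2, and that of the cartilage list 1099 in T1 and 1435 in T2, against 76.1 in C1 and 77.0 in C2. None of 5 measured proliferation genes was called (log2 fold changes from −0.66 to −0.15). All 5 were lower in carcinoma within both pools. For 4 of them (80%) both carcinoma libraries lay below both non-tumor libraries, beside 28.0% of all genes. The part of these cell types in the changes of the enzyme genes was not tested.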

How the data were processed

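The deposited tables give, for each gene, a count in whole numbers that was not normalized. By the paper's methods the authors used TopHat2 and HTSeq at default settings, while STAR, featureCounts, FastQC and DESeq2 are the tools named in the submitters' processing notes. The library kit marks strand. Neither the genome build nor the strand setting of the counting is given in the sources used here, so no coordinates are printed and reads of overlapping or antisense genes cannot be told apart. The tables also give a length per gene, near the span with introns, so levels were not divided by length.

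The analysis used edgeR 4.0.16 under R 4.3.3, with filterByExpr (all 11277 genes were kept), TMM and the quasi-likelihood test, without a block since the study's methods name none, and DESeq2 1.42.0. The code was tested on simulated counts. A standard error here is the size of the log2 fold change over the root of F. Ratios within a pool carry exact conditional 95% intervals, which cover counting error only. The same-numbered libraries are paired by dog in the paper, and across genes, which are no independent replicates, the correlation of their deviations from the tissue means was 0.802. Adding the block lowered the common dispersion to 0.00216, against 0.0508 without it, and left 1 residual degree of freedom instead of 2.

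By the rule for named genes, members called with or without the block, the most abundant of each role and the isoenzyme pairs were given by library, and the rest were added. Of the other lists, up to 3 called genes with the smallest adjusted p were named, and PDP2, H6PD, SLC16A3, MYC, PHKG1 and GYS1 were named after their values were seen. The members and lists were chosen with earlier results of these data known. Alternatives were DESeq2, RLE factors, library totals alone, no filter, at least 10 counts in every library, the block, thinning of pool 1 to the depth of pool 2, and leaving out each library.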

Additional observations from a re-analysis of the deposited data

How the results depend on the processing

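The 4 member calls (HK1, ALDOC, PDK3 and PDK4) were made under each of the 11 alternatives run. The count of members called higher was 6 instead of 3 by DESeq2 and 6 with the replicate block, and ranged from 3 to 8 over the 4 fits that left out 1 library each. Over all genes, 800 were higher with the replicate block instead of 521, and 342 to 509 with 1 library left out. The block turned GPI, PFKP and PC into calls and changed no other member call. With library totals alone DLD had a log2 fold change of 0.019, and with pool 1 thinned SUCLG1 had one of −0.039, both of them signs opposite to the main value. With 1 library left out, 9 uncalled members changed sign, over ranges of −0.24 to 0.36 for PFKM, −0.25 to 0.44 for PFKFB3, −0.027 to 0.32 for PDHA1, −0.27 to 0.23 for DLD, −0.10 to 0.39 for IDH2, −0.064 to 0.37 for DLST, −0.056 to 0.071 for SUCLG1, −0.13 to 0.12 for FH and −0.24 to 0.53 for MDH1. In each such fit the lone library of a group is assumed to vary like the others. The median of the citrate cycle genes was then between −0.06 and 0.20, and that of the upper glycolytic genes between 0.67 and 1.06. The cause of these shifts was not tested. In pool 2 PC and ALDOC rested on 57 and 55 counts in control, which limits the precision of their ratios.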
